A study of Homo sapiens with 12 samples.

Results

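Cytochrome P450 enzymes of families 1 to 4 were followed in a study of CD146 (gene MCAM), a cell surface adhesion protein, in human liver cancer cell lines. Members were the protein-coding genes whose symbol is CYP, a family number from 1 to 4, a subfamily letter and a number. This gave 35 of the 61806 gene IDs in the deposited count table: 3 genes of family 1, 16 of family 2, 4 of family 3 and 12 of family 4. CYP2D7, which is annotated as a polymorphic pseudogene, was left out. RNA-seq of poly(A) RNA was carried out on 12 libraries in 4 groups of 3. The libraries labelled Hep3B carried a Tet-on inducible CD146 shRNA (labelled CD146 sh) or a control shRNA (Con sh). The HepG2 libraries carried a CD146 expression vector or the pLVX vector without it. Both lines are established lines from human liver tumours, grown in different media, so the line, the medium, the vector and the kind of perturbation cannot be told apart where the lines are compared. Whether the 3 libraries of a group are separate cultures, or carry different hairpins in the shRNA groups, is not in the labels, and they were treated as replicates. The p-values therefore cover only the variation seen among these libraries, and it may be technical.

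P450 enzymes are haem proteins that insert an oxygen atom into their substrates, mostly in the endoplasmic reticulum, with electrons delivered by NADPH-cytochrome P450 reductase. Members of families 1 to 3 carry out much of the oxidation of drugs and other foreign compounds in hepatocytes, and members of family 4 mainly hydroxylate fatty acids and eicosanoids. Their transcription in the liver depends on hepatocyte factors such as HNF4A and on receptors that sense ligands, among them AHR for family 1 and PXR (NR1I2) and CAR (NR1I3) for families 2 and 3. Tumour-derived liver lines are known to hold much less P450 RNA than hepatocytes.

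The counts of a library summed to 14.1M to 18.1M in the CD146 shRNA group, 13.8M to 16.7M in the control shRNA group, 13.3M to 16.9M under CD146 overexpression and 12.8M to 16.7M under pLVX (M, 1e6). The unit of levels here is CPM (counts in 1e6 counts of the library), and 3 counts, taken as the floor of detection, were worth 0.165 to 0.235 CPM (counting error only). MCAM stood at 22.0, 23.7 and 26.4 CPM with the CD146 shRNA, against 116, 112 and 120 CPM with the control shRNA. In HepG2 it had 1992, 1991 and 1947 CPM under CD146 overexpression, against 22.2, 23.0 and 23.1 CPM with pLVX. Of 28 hepatocyte markers, CPS1 alone reached a mean of 10 CPM in either group labelled Hep3B, whereas 26 did in both HepG2 groups. AFP and TTR had 0 counts with the control shRNA, so defining hepatocyte markers were at or near 0 in libraries labelled as a liver line. ALB had 1, 1 and 298 counts with the CD146 shRNA and 0, 5 and 0 counts with the control shRNA, so replicate 3 with the CD146 shRNA stood apart. Results that rest on that library are given without it below. In bulk RNA, fewer cells that express a gene and less RNA per cell cannot be told apart.

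A member was called detected where its mean reached 1 CPM in a group. By this rule 18 of the 35 members were detected: 9 with the CD146 shRNA, 7 with the control shRNA, 14 with CD146 overexpression and 15 with pLVX. CYP1A1, CYP2D6, CYP2R1, CYP2S1 and CYP3A5 were detected in all 4 groups, and CYP3A7 in all but the CD146 overexpression group. CYP1B1, CYP2A6 and CYP2E1 were detected in libraries labelled Hep3B and not in HepG2. CYP2J2, CYP2U1, CYP2W1, CYP3A43, CYP4F2, CYP4F3, CYP4F11, CYP4F12 and CYP4V2 were detected in HepG2 and not in libraries labelled Hep3B. Just inside the threshold lay CYP2A6, at 1.00 CPM in its highest group, and just outside it CYP4X1, at 0.460 CPM. Within single groups, CYP2E1 with CD146 overexpression (0.997 CPM) and CYP4F12 with the CD146 shRNA (0.999 CPM) lay just under the threshold. CYP3A7 with CD146 overexpression (0.908 CPM) and CYP4V2 with the control shRNA (0.926 CPM) were close under it. CYP2D6 with CD146 overexpression was just over it at 1.01 CPM, with libraries at 0.988, 0.676 and 1.36 CPM.

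**Figure D1:**
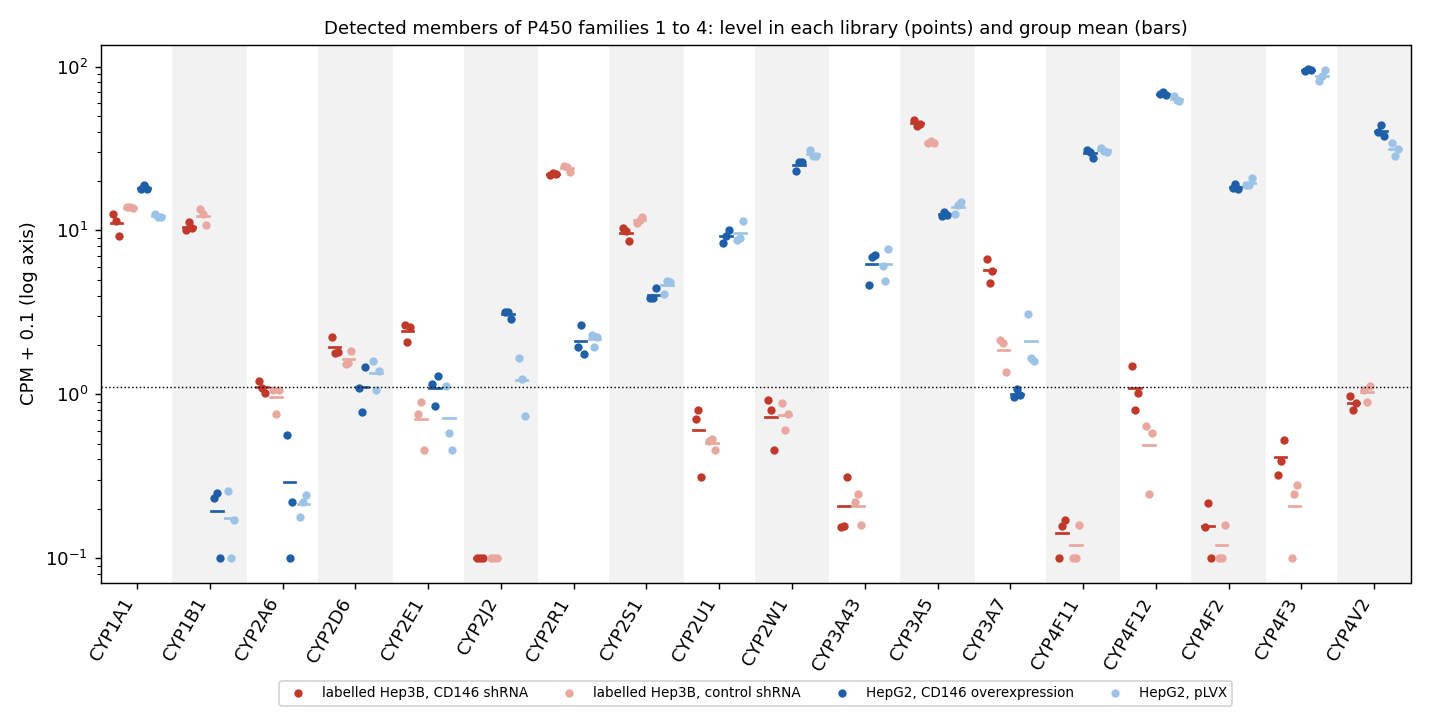
Level of each detected member in every library (points) and the mean of each group of 3 libraries (bars), as CPM + 0.1 on a log axis. The dotted line marks 1 CPM. CYP4F3, CYP4F12, CYP4F11 and CYP4F2 stand high in HepG2 and near the floor in libraries labelled Hep3B, while CYP2R1 and CYP3A5 are higher in libraries labelled Hep3B.

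The 17 members that were not detected include the main drug-metabolising P450s of adult liver. CYP3A4, the most abundant P450 of adult human liver, had at most 7 counts in a library. CYP2C8 had at most 8 counts, CYP2C18 at most 6, CYP1A2, the caffeine demethylase, at most 4 and CYP2B6 at most 2. CYP4B1 had at most 7 counts, CYP4X1 at most 11, CYP4Z1 at most 4, and CYP2A7 and CYP4A22 at most 3. CYP2C19 and CYP2F1 had at most 2 counts, and CYP4F8 and CYP4F22 at most 1. CYP2A13 and CYP4A11 had 0 counts in all 12 libraries. These members were left out of the tests by the filter on low counts.

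The members' summed level was 114 ± 5.34 CPM with the CD146 shRNA and 105 ± 2.46 CPM with the control shRNA, against 335 ± 9.20 CPM with CD146 overexpression and 316 ± 8.77 CPM with pLVX (SD, n = 3 each). On the deposited FPKM, which divide by gene length and so allow genes to be compared, the families contributed in different proportions. Family 4 made up 3.30% of the members' summed FPKM with the CD146 shRNA and 2.27% with the control shRNA, but 67.4% with CD146 overexpression and 66.4% with pLVX. Family 2 made up 46.5% with the CD146 shRNA, 51.0% with the control shRNA, 19.7% with CD146 overexpression and 22.0% with pLVX. The share of family 3 was 27.8% with the CD146 shRNA, 18.8% with the control shRNA, 5.40% with CD146 overexpression and 6.32% with pLVX. Family 1 gave 22.3% with the CD146 shRNA, 27.9% with the control shRNA, 7.48% with CD146 overexpression and 5.28% with pLVX. These shares depend on the gene length used. Per kilobase of the longest protein-coding transcript, family 3 made up 40.4% with the CD146 shRNA and 30.8% with the control shRNA, above family 1 at 14.9% with the CD146 shRNA and 20.1% with the control shRNA. Family 4 still made up 73.3% with CD146 overexpression and 71.7% with pLVX on that scale.

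**Figure D2:**
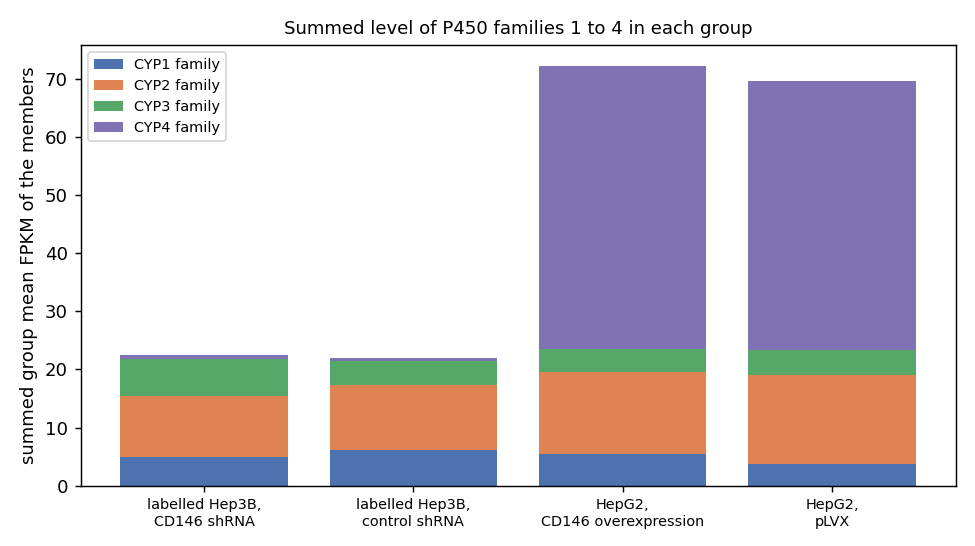
Group mean FPKM summed over the members of each family (stacked bars), for the 4 groups. Family 4 forms 67.4% of the bar for CD146 overexpression, 66.4% of that for pLVX, 3.30% of that for the CD146 shRNA and 2.27% of that for the control shRNA.

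By FPKM, the highest members with the CD146 shRNA were CYP2R1 at 4.90, CYP3A5 at 4.58, CYP2S1 at 3.50 and CYP1A1 at 3.28. With the control shRNA, CYP2R1 at 5.30, CYP2S1 at 4.23, CYP1A1 at 4.08 and CYP3A5 at 3.49 FPKM led. CYP4F3 led in HepG2 with 17.3 FPKM under CD146 overexpression and 15.95 FPKM with pLVX, followed by CYP4F12 with 13.4 FPKM under CD146 overexpression and 12.4 FPKM with pLVX. The next was CYP2W1 with 8.94 FPKM under CD146 overexpression and 10.4 FPKM with pLVX. The order depends on the gene length used: per kilobase of the longest protein-coding transcript, CYP4F12 led in HepG2 and CYP3A5 led with the CD146 shRNA. This length, also used for the family shares above, was tried after the data were seen. The deposited FPKM imply a length of 9813 bases for CYP3A5, against 3320 for that transcript.

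The comparison of the CD146 shRNA with the control shRNA asked which members change when CD146 is lowered. CYP3A7, CYP3A5, CYP2E1 and CYP4F12 rose and CYP1A1 fell, as called at an adjusted p under 0.05 by edgeR's quasi-likelihood test with Benjamini-Hochberg adjustment over all genes tested. Thus 5 of the 12 members with enough counts to test were called, and 23 were not tested. Of all 16968 genes tested 55.4% were called, 26.9% higher and 28.5% lower. On unscaled CPM, the groups did not overlap for 7 of the 12 members, against 60.2% of all genes. The median log2 fold change (CD146 shRNA minus control shRNA) was 0.13 over the 12 members and 0.00 over all genes. Fold changes use TMM-scaled library sizes, which moves them by 0.04 on the log2 scale from the ratio of the CPM values.

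The CYP3A genes lie together on chromosome 7, where CYP3A5 spans bases 99648194 to 99680026 and CYP3A7 spans 99684957 to 99735196 (GRCh38, minus strand). CYP3A5, a polymorphic drug-metabolising enzyme of liver and gut, was the member with the most counts in libraries labelled Hep3B. Its level was 47.1, 43.1 and 44.6 CPM with the CD146 shRNA, against 34.1, 34.8 and 33.9 CPM with the control shRNA. All 3 CD146 shRNA libraries lay above all 3 control libraries, and the rise was 0.43 on the log2 scale (SE 0.06, edgeR adjusted p = 7.7e-08). CYP3A7, the main CYP3A form of fetal liver, stood at 6.62, 4.71 and 5.53 CPM with the CD146 shRNA, against 2.04, 1.96 and 1.26 CPM with the control shRNA. The groups again lay apart, with a log2 fold change of 1.72 (SE 0.20, edgeR adjusted p = 2.3e-10). For every 100 counts of CYP3A5 there were 14.1, 10.9 and 12.4 counts of CYP3A7 with the CD146 shRNA, against 5.98, 5.63 and 3.72 with the control shRNA. The adult form CYP3A4 and CYP3A43 stayed near the floor, with summed counts of 9 and 5 with the CD146 shRNA and 13 and 5 with the control shRNA. CYP3A7 shares 75.01% of its 75-base transcript windows with other genes, mainly the readthrough gene CYP3A7-CYP3A51P, which had 0 to 3 counts per library, so its level is uncertain.

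The CYP3A members are close copies, of which CYP3A5 and CYP3A7 both rose with the CD146 shRNA by different amounts. CYP3A4 was too low to test. The bases before their start sites are shown, from RefSeq (GRCh38.p14) on the gene's minus strand: CYP3A5 at chr7:99679997-99680246, CYP3A7 at chr7:99735197-99735446 and CYP3A4 at chr7:99784185-99784434. Capitals mark an everted repeat in CYP3A5 and CYP3A4 (TGAACT and AGGTCA with 6 unspecified bases between them), an element known as a binding site of PXR in the CYP3A4 promoter, and AGGTCA in CYP3A7.
CYP3A5: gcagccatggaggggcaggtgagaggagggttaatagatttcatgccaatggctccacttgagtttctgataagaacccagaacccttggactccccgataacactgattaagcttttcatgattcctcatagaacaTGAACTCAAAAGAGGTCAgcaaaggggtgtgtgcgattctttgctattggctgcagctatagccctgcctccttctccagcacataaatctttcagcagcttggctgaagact
CYP3A7: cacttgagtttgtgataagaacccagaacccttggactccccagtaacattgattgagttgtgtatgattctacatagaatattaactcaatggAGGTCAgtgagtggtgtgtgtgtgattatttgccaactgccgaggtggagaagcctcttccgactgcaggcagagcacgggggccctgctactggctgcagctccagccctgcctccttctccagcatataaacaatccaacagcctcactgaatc
CYP3A4: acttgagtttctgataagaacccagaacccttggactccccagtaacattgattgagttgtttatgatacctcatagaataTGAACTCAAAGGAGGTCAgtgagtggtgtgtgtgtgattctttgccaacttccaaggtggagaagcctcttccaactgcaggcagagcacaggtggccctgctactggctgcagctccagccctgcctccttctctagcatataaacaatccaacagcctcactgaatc
The repeat was searched on both strands, from 250 bases before to 50 after each RefSeq start. It was found in CYP3A5 (at -113) and CYP3A4 (at -169), that is in 2 of the 27 members with a promoter in the table and in 3 of all 35116 promoters (0.00854%). The search took exact matches only. In CYP3A7 these letters were not found in this window, while AGGTCA, which forms the end of the repeat, was found at -156. The CYP3A7 bases shown do hold a near match, with the same gap of 6 bases before AGGTCA. Its letters in the place of TGAACT differ from TGAACT by a single letter. Whether PXR binds this near match was not tested. AGGTCA occurred in 9 of the 27 members (33.3%) and in 13.8% of all promoters. Over the aligned bases, the CYP3A5 and CYP3A7 promoters were 84.3% identical, and CYP3A7 and CYP3A4 were 94.3% identical. NR1I2, the gene of PXR, had 4 counts in all with the CD146 shRNA and 5 with the control shRNA, and averaged 27.1 CPM with CD146 overexpression and 25.1 CPM with pLVX.

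CYP2E1, which oxidises ethanol and paracetamol, stood at 2.54, 1.98 and 2.48 CPM with the CD146 shRNA, against 0.660, 0.798 and 0.360 CPM with the control shRNA. The groups did not overlap, and the log2 fold change was 1.99 (SE 0.31, edgeR adjusted p = 3.2e-07). Its counted model is 9621 exon bases long against 1912 for its longest protein-coding transcript, and it lies on chromosome 10 from 133520406 to 133561220 across SCART1, which rose too (log2 fold change 1.10, edgeR adjusted p = 2.6e-04). No exon bases are shared with SCART1. Exon bases are shared with SYCE1 (2064), which had 0 to 2 counts per library, and AL161645.1 (235). The sources used here do not give the strand setting of the counting, and the part of overlapping genes in the rise was not tested. CYP4F12, a fatty acid and drug hydroxylase, had 25, 12 and 13 counts with the CD146 shRNA, against 9, 2 and 8 with the control shRNA. The groups did not overlap, and the log2 fold change was 1.35 (SE 0.41, edgeR adjusted p = 0.0051). This call was lost without control replicate 2 (log2 fold change 1.01, adjusted p = 0.053) and without CD146 shRNA replicate 1 (1.03, adjusted p = 0.071).

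CYP1A1, the AHR-induced oxidase of polycyclic aromatic hydrocarbons, stood at 12.6, 11.4 and 9.14 CPM with the CD146 shRNA, against 13.7, 13.7 and 13.6 CPM with the control shRNA. All CD146 shRNA libraries lay below the controls, and the log2 fold change was -0.26 (SE 0.10, edgeR adjusted p = 0.030). Without CD146 shRNA replicate 3, the library with 298 ALB counts, the value was -0.16 and the call was lost (adjusted p = 0.22). DESeq2 did not make the call either (adjusted p = 0.095), nor did edgeR with upper quartile scaling (-0.19, adjusted p = 0.11), and it was lost without any of the 3 control libraries (adjusted p = 0.050 to 0.057). The 4 rises were called without replicate 3 as well, with log2 fold changes of 0.43 for CYP3A5, 1.73 for CYP3A7, 1.94 for CYP2E1 and 1.39 for CYP4F12.

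The other 7 tested members did not pass the test. CYP2R1, the main vitamin D 25-hydroxylase, stood at 21.6, 22.4 and 22.0 CPM with the CD146 shRNA, against 24.8, 24.2 and 22.5 CPM with the control shRNA. The groups lay just apart on unscaled CPM, by less than the TMM shift of 0.04 on the log2 scale. The log2 fold change was -0.08, with a 95% interval from -0.23 to 0.07. CYP2S1, which acts on retinoids and prostaglandin intermediates, stood at 10.3, 9.76 and 8.50 CPM with the CD146 shRNA, against 11.03, 11.4 and 12.01 CPM with the control shRNA. The groups lay apart, but edgeR's adjusted p was 0.068 (log2 fold change -0.23). With limma CYP2S1 was called (adjusted p = 0.027 on log2(FPKM + 0.1) and 0.026 on log2(FPKM + 1)), which makes 6 members called there. CYP1B1, which hydroxylates oestrogens, stood at 9.93, 11.2 and 10.2 CPM with the CD146 shRNA, against 13.4, 12.4 and 10.7 CPM in control libraries. The groups overlapped (log2 fold change -0.19, edgeR adjusted p = 0.13). CYP1B1 shares 678 exon bases with CYP1B1-AS1, whose log2 fold change was -0.05 (adjusted p = 0.71). The weak members CYP2A6 (nicotine oxidation), CYP2D6 (oxidation of many basic drugs), CYP2W1 and CYP4V2 had log2 fold changes of 0.25, 0.30, 0.01 and -0.20, with 95% intervals that all include 0.

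Among markers of other cell types, the summed level of 9 endothelial markers was 55.3 to 55.8 CPM with the CD146 shRNA and 34.3 to 38.1 CPM with the control shRNA, with KDR at 0 counts in both. CDH5 accounts for most of that gap, at 19.8 CPM with the CD146 shRNA and 0.762 CPM with the control shRNA, while ERG stood at 15.9 CPM with the CD146 shRNA and 19.1 CPM with the control shRNA. That of 9 fibroblast and stellate markers was 98.7 to 121 CPM with the CD146 shRNA and 62.2 to 72.7 CPM with the control shRNA, mostly COL1A1. The 12 erythroid markers summed to 10.1 to 13.4 CPM with the CD146 shRNA and 22.7 to 27.8 CPM with the control shRNA, with HBE1 at 2.69 CPM with the CD146 shRNA and 16.4 CPM with the control shRNA, and HBA2 and KLF1 at 0 counts in both. The 28 hepatocyte markers summed to 2913 to 3063 CPM with the CD146 shRNA and 1594 to 1678 CPM with the control shRNA, of which CPS1 averaged 2947 CPM with the CD146 shRNA and 1626 CPM with the control shRNA. The part of these shifts in the P450 changes was not tested.

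**Figure D3:**
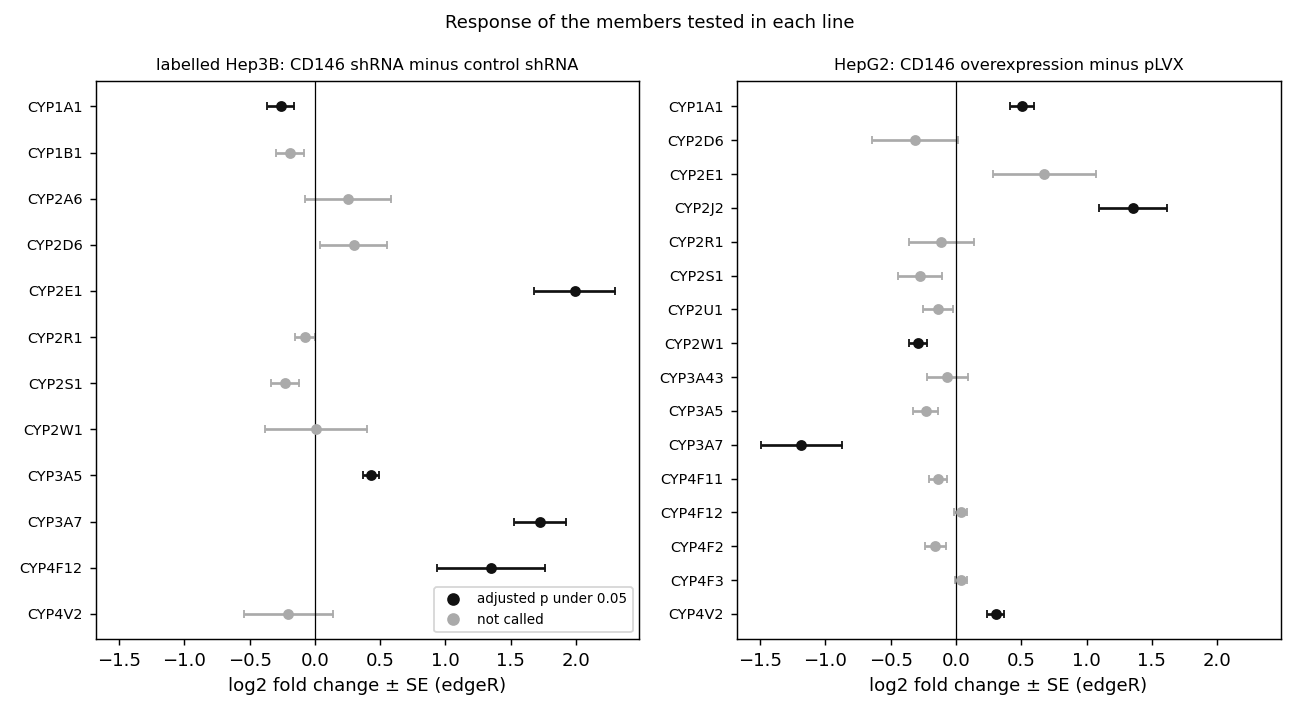
Log2 fold change ± SE of each tested member in both perturbations, from edgeR. Black points passed an adjusted p of 0.05: 4 rises and 1 fall with the CD146 shRNA, and 3 rises and 2 falls with CD146 overexpression.

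The comparison of CD146 overexpression with pLVX asked which members change when CD146 is raised in HepG2. CYP2J2, CYP1A1 and CYP4V2 rose, and CYP3A7 and CYP2W1 fell. Of the 16 members tested 5 were called, where 20.3% of all 15300 genes tested were (9.71% higher and 10.6% lower), and 19 members were not tested. On unscaled CPM, the groups did not overlap for 6 of the 16 members, against 36.0% of all genes. The median log2 fold change (CD146 overexpression minus pLVX) was -0.12 over these members and 0.00 over all genes. TMM scaling moves these fold changes by -0.07 from the ratio of CPM values.

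CYP2J2, an epoxygenase of arachidonic acid, stood at 3.10, 3.08 and 2.79 CPM with CD146 overexpression, against 1.57, 1.14 and 0.641 CPM with pLVX. Every overexpression library lay above every pLVX library, with a log2 fold change of 1.36 (SE 0.26, edgeR adjusted p = 3.9e-05). CYP1A1 stood at 17.8, 18.7 and 17.7 CPM with CD146 overexpression, against 12.4, 12.01 and 11.9 CPM with pLVX. Here too the groups lay apart, and the log2 fold change was 0.50 (SE 0.09, edgeR adjusted p = 9.3e-06). CYP4V2, a fatty acid omega-hydroxylase mutated in Bietti crystalline dystrophy, stood at 39.8, 43.7 and 37.7 CPM with CD146 overexpression, against 34.0, 28.4 and 31.1 CPM with pLVX. Its log2 fold change was 0.30 (SE 0.07, edgeR adjusted p = 2.8e-04), with no overlap between the groups. CYP4V2 shares 201 exon bases with the neighbouring KLKB1, which was not called (log2 fold change 0.40, edgeR adjusted p = 0.29).

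CYP1A1 and CYP2J2 rose together, and the 250 bases before their RefSeq starts (GRCh38.p14, minus strand) are shown for that reason: CYP1A1 at chr15:74725529-74725778 and CYP2J2 at chr1:59926774-59927023. Capitals mark GCGTG, the core of the xenobiotic response element that AHR and ARNT bind.
CYP1A1: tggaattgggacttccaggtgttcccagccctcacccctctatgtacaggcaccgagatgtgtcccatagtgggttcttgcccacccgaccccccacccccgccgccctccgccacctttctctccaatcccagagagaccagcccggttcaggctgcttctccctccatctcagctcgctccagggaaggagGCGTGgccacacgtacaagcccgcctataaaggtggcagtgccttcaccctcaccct
CYP2J2: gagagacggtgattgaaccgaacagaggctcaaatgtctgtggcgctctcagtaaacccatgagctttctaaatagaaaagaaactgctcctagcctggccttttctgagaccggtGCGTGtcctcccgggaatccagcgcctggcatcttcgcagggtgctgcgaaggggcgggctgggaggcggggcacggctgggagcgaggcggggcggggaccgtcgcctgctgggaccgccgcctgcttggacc
GCGTG was searched on both strands from 250 bases before to 50 after the start. It was found at -57 in CYP1A1, at -134 in CYP2J2 and at 23 after the start of CYP4V2, and in reverse at -144 and -50 in CYP2W1, which fell. The motif is common: 8 of the 27 members with a promoter (29.6%) and 36.5% of all promoters held it. AHR itself averaged 27.9 ± 2.58 CPM with CD146 overexpression and 23.2 ± 1.85 CPM with pLVX (SD, n = 3; log2 fold change 0.20, edgeR adjusted p = 0.046). With the CD146 shRNA AHR averaged 23.4 ± 1.69 CPM, against 24.9 ± 1.53 CPM with the control shRNA (log2 fold change -0.05, adjusted p = 0.58).

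CYP3A7 stood at 0.857, 0.977 and 0.890 CPM with CD146 overexpression, against 2.98, 1.55 and 1.50 CPM with pLVX. The groups lay apart, and the log2 fold change was -1.18 (SE 0.31, edgeR adjusted p = 0.0025). The pLVX group is spread by its replicate 1, without which the value was -0.82 and the call was lost (adjusted p = 0.096). CYP2W1, a P450 of fetal gut and of colon tumours, stood at 22.8, 26.1 and 26.0 CPM with CD146 overexpression, against 30.8, 28.2 and 28.3 CPM with pLVX. No overexpression library reached a pLVX library, and CYP2W1 fell by 0.29 on the log2 scale (SE 0.07, edgeR adjusted p = 0.0013). With limma on log2(FPKM + 0.1), the adjusted p was 0.056 for CYP2W1 and 0.051 for CYP3A7.

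**Figure D4:**
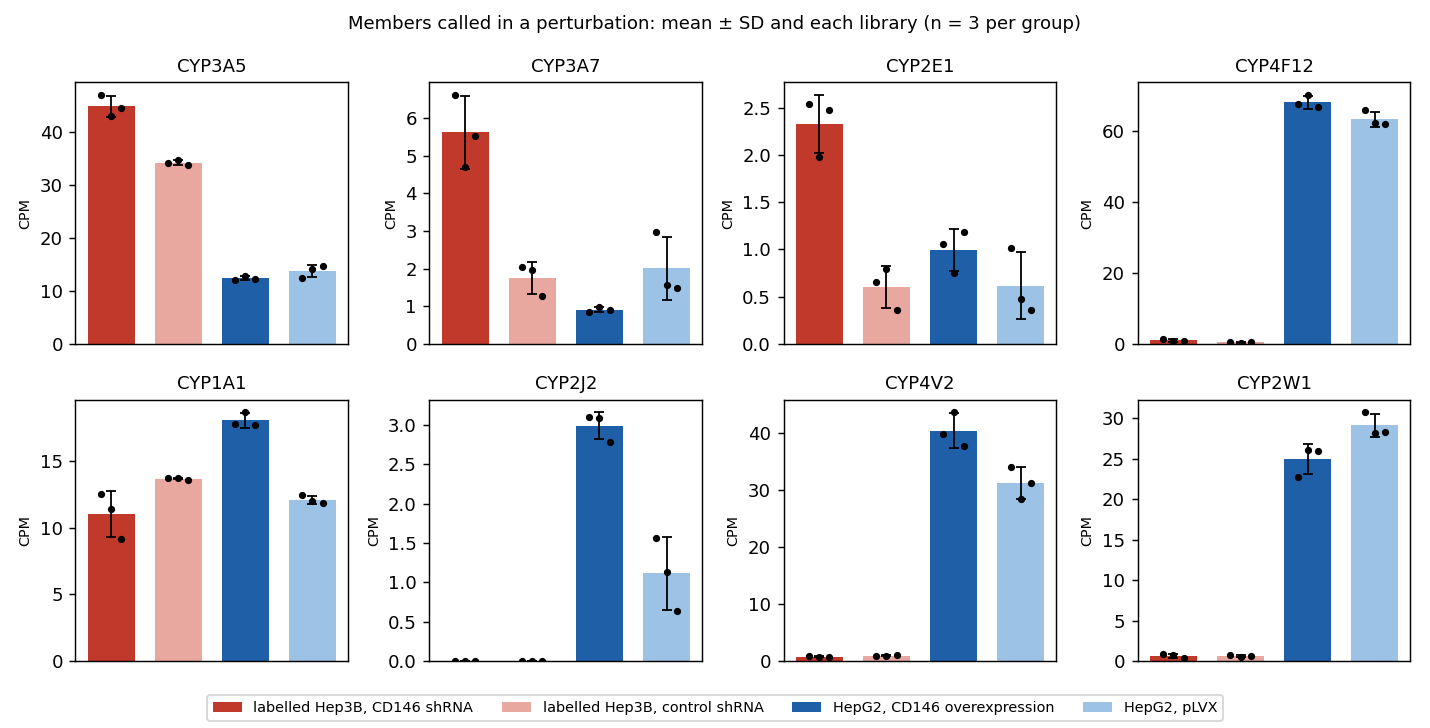
CPM of the 8 members called in at least 1 perturbation, as bars (mean) with SD and the 3 libraries of each group as points. CYP3A7 stands at 4.71 to 6.62 CPM with the CD146 shRNA and at 1.26 to 2.04 CPM with the control shRNA, and at 0.857 to 0.977 CPM with CD146 overexpression and 1.50 to 2.98 CPM with pLVX.

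The abundant CYP4F enzymes, which omega-hydroxylate leukotriene B4, arachidonic acid and vitamins E and K, were not called in HepG2. CYP4F3 stood at 94.4, 96.4 and 95.0 CPM with CD146 overexpression and at 81.9, 87.2 and 94.9 CPM with pLVX (log2 fold change 0.04, 95% interval -0.05 to 0.13). CYP4F12 stood at 67.5, 70.2 and 66.7 CPM with CD146 overexpression, against 65.8, 62.1 and 61.8 CPM with pLVX (log2 fold change 0.04, 95% interval -0.06 to 0.13). On unscaled CPM, CYP4F3 overlapped between the groups and CYP4F12 did not. CYP4F11 stood at 30.8, 30.1 and 27.7 CPM with CD146 overexpression and at 31.7, 30.6 and 30.2 CPM with pLVX (log2 fold change -0.14, adjusted p = 0.15). CYP4F2 stood at 18.1, 19.01 and 17.9 CPM with CD146 overexpression and at 18.8, 18.8 and 20.7 CPM with pLVX (log2 fold change -0.16, adjusted p = 0.18). Both genes overlapped between the groups on unscaled CPM. TMM scaling moves the fold changes by -0.07 on the log2 scale. The narrow gap of CYP4F12 and the narrow overlaps of CYP4F11 and CYP4F2 may therefore depend on the scaling. The 4 genes lie within bases 15640897 to 15934867 of chromosome 19. CYP4F2 and CYP4F3 share 9.13% and 4.28% of their 75-base windows with each other, so a few reads may be split between them.

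CYP3A5 was also not called in HepG2, at 12.1, 12.8 and 12.3 CPM with CD146 overexpression and 12.5, 14.1 and 14.8 CPM with pLVX (log2 fold change -0.23, edgeR adjusted p = 0.080). CYP2R1 stood at 1.84, 2.55 and 1.66 CPM with CD146 overexpression and at 2.19, 1.85 and 2.14 CPM with pLVX, which overlap. CYP2S1 stood at 3.76, 3.76 and 4.33 CPM with CD146 overexpression and at 3.99, 4.84 and 4.77 CPM with pLVX, which overlap as well. CYP2U1, a hydroxylase of long-chain fatty acids, and CYP3A43 had log2 fold changes of -0.14 and -0.07, and CYP2D6 and CYP2E1 of -0.31 and 0.68. The 95% intervals of these 4 values include 0. The 9 cholangiocyte markers summed to 1257 to 1292 CPM with CD146 overexpression and 934 to 1033 CPM with pLVX, with CFTR at 0 counts in both groups. The 28 hepatocyte markers summed to 68266 to 68930 CPM with CD146 overexpression and 73712 to 76007 CPM with pLVX. ALB and AFP fell most in CPM. ALB stood at 15277 to 15641 CPM with CD146 overexpression and 20885 to 21671 CPM with pLVX, and AFP averaged 4369 and 6001 CPM. Of the 27 markers tested, 3 rose, 13 fell and 11 were not called, where 9.71% of all genes rose and 10.6% fell. The part of these shifts in the P450 changes was not tested.

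Both perturbations were then set on a common direction, higher CD146, by subtracting the effect in libraries labelled Hep3B (control shRNA minus CD146 shRNA) from that in HepG2 (CD146 overexpression minus pLVX) in a fit of all 12 libraries. Of the 18 members tested 3 were called, where 36.5% of all genes were (17.2% higher and 19.3% lower): CYP2E1 (log2 difference 2.67, 95% interval 1.67 to 3.67, edgeR adjusted p = 9.5e-06), CYP4F12 (1.38, adjusted p = 0.0017) and CYP2S1 (-0.50, adjusted p = 0.036). The CYP2S1 call was lost with DESeq2 (adjusted p = 0.082) and when 7 of the 12 libraries were left out, each alone. CYP2J2 had 0 counts in both groups labelled Hep3B, so no difference could be measured for it. CYP4F11, CYP4F2 and CYP3A43 were near the floor in libraries labelled Hep3B, as were CYP1B1 and CYP2A6 in HepG2. Their differences had SEs of 0.88 to 1.26 on the log2 scale, so the lack of a call there does not show like responses. CYP3A7 was lower at the higher CD146 level in both lines, and the difference between the lines was not called (log2 difference 0.55, 95% interval -0.20 to 1.30, adjusted p = 0.29). Its call with CD146 overexpression was lost without pLVX replicate 1 (edgeR adjusted p = 0.096). CYP1A1 was higher at the higher CD146 level in both lines, and here too the difference was not called (0.25, 95% interval -0.02 to 0.52, adjusted p = 0.16). Its call with the CD146 shRNA was lost with DESeq2 (adjusted p = 0.095) and without CD146 shRNA replicate 3 (edgeR adjusted p = 0.22). CYP3A5, lower at the higher CD146 level in libraries labelled Hep3B, did not differ beyond the threshold either (0.20, 95% interval -0.02 to 0.42, adjusted p = 0.17).

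Between the unperturbed controls, HepG2 with pLVX against libraries labelled Hep3B with the control shRNA, 14 of 18 tested members were called, 9 higher and 5 lower in HepG2, where 83.2% of all genes were called (39.8% higher and 43.4% lower). On unscaled CPM, the groups did not overlap for 15 of the 18, against 84.6% of all genes. TMM scaling adds 0.32 to these log2 fold changes over the ratio of CPM values. CYP4F12 was higher in HepG2 by 7.58 on the log2 scale, CYP2W1 by 5.76, CYP4V2 by 5.36 and CYP2U1 by 4.86. CYP4F11, CYP4F2 and CYP4F3 had summed counts of 1341, 846 and 3838 with pLVX, against 1, 1 and 5 with the control shRNA. These 3 genes are too low in the control shRNA libraries for a fold to be given. CYP2J2 had 48 counts with pLVX and 0 with the control shRNA, which makes it at least 17.3-fold higher in HepG2 (floor of 3 counts over the group). CYP3A43 had 264 counts with pLVX and 5 with the control shRNA.

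Lower in HepG2 were CYP2R1 (log2 fold change -3.22), CYP2S1 (-1.01) and CYP3A5 (-0.99), all called by edgeR. CYP1B1 had 3 counts with pLVX and 574 with the control shRNA, and CYP2A6 had 5 with pLVX and 41 with the control shRNA. Both were called lower as well, but they are too low with pLVX for a fold to be given. CYP2A6 shares 23.8% of its 75-base windows with CYP2A7 and CYP2A13, so its reads may be split. The values of CYP1A1 (0.14), CYP2D6 (-0.03), CYP2E1 (0.32) and CYP3A7 (0.49) did not pass the test, with an adjusted p of 0.075 for CYP3A7. That value fell to 0.13 without pLVX replicate 1 (adjusted p = 0.69), and it was called without pLVX replicate 2 or 3 or without control shRNA replicate 1 or 2, at 0.60 to 0.66 (adjusted p = 0.029 to 0.048). CYP2D6 shares 25.8% of its windows with CYP2D7 and CYP2D8P and is uncertain too.

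Genes that work with P450 enzymes were counted from lists, to be read against the 55.4% of all genes called with the CD146 shRNA and the 20.3% called with CD146 overexpression. Among 20 genes of electron transfer and haem synthesis and breakdown, 4 rose, 11 fell and 5 were not called with the CD146 shRNA (median log2 fold change -0.17, against 0.00 over all genes). CYB5B, the outer mitochondrial membrane cytochrome b5, rose to 640 ± 11.4 CPM with the CD146 shRNA, against 349.9 ± 10.6 CPM with the control shRNA (log2 fold change 0.91, edgeR adjusted p = 3.4e-24). FECH, which inserts iron into haem, fell to 12.1 ± 0.428 CPM, against 27.2 ± 0.425 CPM with the control shRNA (-1.13, adjusted p = 2.5e-16). PGRMC2 rose by 0.46 and CYB5R3, the cytochrome b5 reductase, fell by 0.57 on the log2 scale. POR, the electron donor of the members, averaged 156 ± 8.53 CPM with the CD146 shRNA and 146 ± 3.66 CPM with the control shRNA (0.13, adjusted p = 0.013). With CD146 overexpression 1 of the 20 rose, 4 fell and 15 were not called. PGRMC1, PGRMC2 and CYB5B fell by 0.40, 0.27 and 0.22, FDXR, the mitochondrial ferredoxin reductase, rose by 0.31, and POR averaged 164 ± 3.21 CPM with CD146 overexpression and 177 ± 3.47 CPM with pLVX (-0.18, adjusted p = 7.1e-05).

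Of the transcription factors and cofactors that regulate P450 genes, 27 were tested with the CD146 shRNA, of which 4 rose and 9 fell, and 32 with CD146 overexpression, of which 6 rose and 2 fell. Both counts lie near the shares over all genes, 55.4% with the CD146 shRNA and 20.3% with CD146 overexpression. PPARGC1A, a coactivator of nuclear receptors, rose to 51.1 ± 3.59 CPM with the CD146 shRNA, against 25.2 ± 2.44 CPM with the control shRNA (log2 fold change 1.05, edgeR adjusted p = 4.1e-18). NR2F1 and PPARA rose by 0.48 and 0.58, and VDR, the vitamin D receptor, fell by 0.63 on the log2 scale. With CD146 overexpression NCOA1 and HNF4A rose by 0.30 and 0.12, and HLF and RXRA fell by 0.16 and 0.22. NR1I3, the gene of CAR, averaged 4.60 ± 0.463 CPM with CD146 overexpression and 2.79 ± 0.181 CPM with pLVX (log2 fold change 0.65, edgeR adjusted p = 0.0054). With the CD146 shRNA NR1I3 averaged 0.770 ± 0.450 CPM, against 1.42 ± 0.347 CPM with the control shRNA (-0.79, adjusted p = 0.044).

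Among AHR targets outside the P450 families, 3 rose and 4 fell of 9 tested with the CD146 shRNA, and 3 rose and 2 fell of 10 tested with CD146 overexpression. Over all genes 26.9% rose and 28.5% fell with the CD146 shRNA, and 20.3% were called with CD146 overexpression. NEDD9 rose by 1.33 with the CD146 shRNA and by 0.52 with CD146 overexpression. CYP1A1 was called lower with the CD146 shRNA, a call lost with DESeq2 (adjusted p = 0.095), and higher with CD146 overexpression. SLC7A5 and LPCAT2 fell by 1.16 and 0.76 with the CD146 shRNA, and NFE2L2 rose by 0.36. TIPARP and ALDH3A1 fell there too, with log2 fold changes of -0.27 and -0.85 (edgeR adjusted p = 1.5e-05 and 0.0036). EREG and GSTA1 rose by 2.43 and 1.23 with CD146 overexpression, and NFE2L2 fell by 0.16. TIPARP and NQO1 were not called with CD146 overexpression (log2 fold changes 0.02 and 0.01). AHRR, the AHR repressor, averaged 8.95 ± 0.760 CPM with the CD146 shRNA and 5.33 ± 0.849 CPM with the control shRNA (log2 fold change 0.78, edgeR adjusted p = 2.4e-06).

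Of the conjugating and other drug-metabolising enzymes, 36 were tested with the CD146 shRNA, of which 10 rose and 14 fell, and 50 with CD146 overexpression, of which 8 rose and 12 fell. Over all genes 55.4% were called with the CD146 shRNA and 20.3% with CD146 overexpression. CES3, a carboxylesterase, rose to 95.0 ± 4.06 CPM with the CD146 shRNA, against 17.4 ± 1.16 CPM with the control shRNA (log2 fold change 2.49, edgeR adjusted p = 1.2e-33). MAOB, a monoamine oxidase, and GSTM1 fell by 2.21 and 0.62, and GSTP1 rose by 0.47. With CD146 overexpression UGT2B10, MAOA, FMO5 and AKR1C3 fell by 0.51, 0.72, 0.39 and 0.35. Among P450 genes of families 5 and above, 3 rose and 3 fell of 8 tested with the CD146 shRNA, and 1 rose and 2 fell of 11 tested with CD146 overexpression, against 55.4% of all genes called with the CD146 shRNA and 20.3% with CD146 overexpression. In the vitamin D pathway, to which CYP2R1 belongs, CYP24A1, the catabolic 24-hydroxylase, rose by 2.67 and CYP27B1, the 1-alpha-hydroxylase, fell by 1.06 with the CD146 shRNA. CYP11A1 rose by 0.67 and CYP26B1 fell by 0.30 there, and with CD146 overexpression CYP7A1, the rate-limiting enzyme of bile acid synthesis, rose by 0.48 while CYP51A1 and CYP27A1 fell by 0.36 and 0.10.

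**Figure D5:**
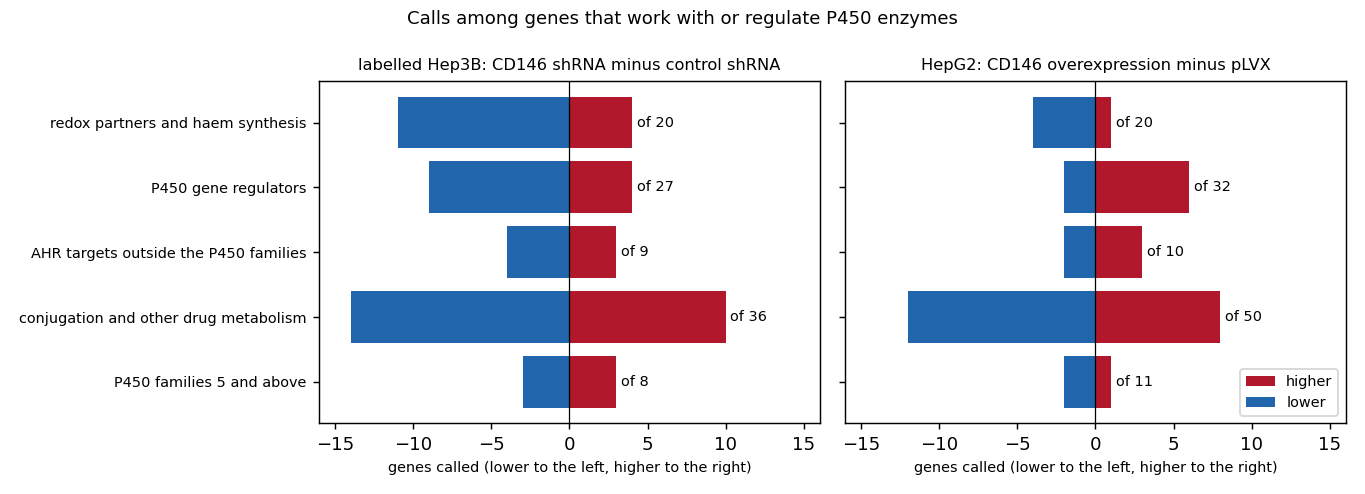
Number of genes called higher (right) and lower (left) in each list, for the CD146 shRNA (left panel) and CD146 overexpression (right panel), with the number tested. With the CD146 shRNA 11 of 20 redox and haem genes are lower, where 28.5% of all genes were.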

How the data were processed

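Raw counts per gene and FPKM were deposited by the authors. HISAT2 2.2.1, HTSeq 0.6.1 and cutadapt 1.9.1 are named in the submitters' processing notes. The sources used here do not give genome build, annotation or strand setting. Symbols matched 61757 of 61806 gene IDs. Biotypes and exon positions came from GENCODE 29 (GRCh38) and promoters from RefSeq (GRCh38.p14), which may differ from the authors' annotation. Counts were tested in R 4.3.3 with edgeR 4.0.16 (TMM, filterByExpr, quasi-likelihood, 2-sided, Benjamini-Hochberg over all genes tested), each line fitted alone and all 12 libraries together for comparisons between lines. The SE was taken as the size of the log2 fold change over the square root of F. The procedure was tested on simulated data, in which well-counted genes alone were changed, each by the same amount up or down. That test did not cover members with few counts or smaller changes. CPM used unscaled totals. Deposited FPKM served to compare genes and as an alternative in limma 3.58.1; DESeq2 1.42.0 was another. The members and gene lists were chosen with earlier results of these data known. Named were all detected members, with every library's value for those called or reaching 10 CPM, the highest count of the others, and up to 4 genes per list and comparison with the smallest adjusted p among called genes of at least 5 CPM. POR, AHR, AHRR, TIPARP, ALDH3A1, NQO1, NR1I2 and NR1I3 were named outside this rule, after their values were seen. All libraries were kept as separate samples, since replicates varied beyond sampling noise (1.74 to 3.93 chi-square units a gene). The values of 1 undetected member are not reported here.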

Additional observations from a re-analysis of the deposited data

Results flagged for a closer look

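The responses to higher CD146 differed between HepG2 and the libraries labelled Hep3B for 3 of 18 members tested. The test was of the difference, in the fit of all 12 libraries, where 36.5% of all genes were called. Several of the 18 members were at or near the floor in a line, so the lack of a call does not show like responses for them. For CYP2E1 the log2 difference was 2.67: its log2 fold change was 0.68 with CD146 overexpression in HepG2 and 1.99 with the CD146 shRNA in libraries labelled Hep3B. For CYP4F12 the difference was 1.38, with 0.04 under CD146 overexpression and 1.35 under the CD146 shRNA, where it had at most 25 counts in a library. For CYP2S1 the difference was -0.50, with -0.27 under CD146 overexpression and -0.23 under the CD146 shRNA, neither called alone. The call of the CYP2S1 difference was lost with DESeq2 and in several fits that left out a single library. Line and method of perturbation cannot be told apart in these differences.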

How the results depend on the processing

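The number of members called stayed within 1.5 times under upper quartile and RLE scaling, no filter on low counts, DESeq2 and the replicate block. Exceptions were the 5 calls with the CD146 shRNA, which ranged from 3 to 5 when single libraries were left out (3 without control replicate 2), and the 5 calls with CD146 overexpression, which were 3 with limma on log2(FPKM + 0.1) and 3 with log2(FPKM + 1). The causes were not tested. Leaving out single libraries kept 5 calls in each fit with CD146 overexpression, 14 to 15 between the lines, 2 to 4 for the difference of responses and 17 to 18 members detected. With FPKM of at least 1 as the threshold, 15 members were detected.

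Values that changed sign were all uncalled. CYP2W1 with the CD146 shRNA was -0.0153 without the filter, -0.0167 with the replicate block, -0.0560 and -0.0095 with limma on log2(FPKM + 0.1) and log2(FPKM + 1), and -0.23 to 0.25 with single libraries left out. With single libraries left out, values with CD146 overexpression ranged from -0.23 to 0.12 for CYP3A43, -0.30 to 0.0219 for CYP2R1 and -0.00023 to 0.0946 for CYP4F3. Between the lines they ranged from -0.17 to 0.15 for CYP2D6 and -0.18 to 0.58 for CYP2E1. Over all alternatives, values of called members kept their side of the threshold 406 times and lost it 23 times, and uncalled ones kept it 298 times and gained it 8 times.

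Deviations of same-numbered libraries correlated at 0.0011 to 0.033, and those of different-numbered libraries at -0.0295 to 0.0144. In the shRNA comparison the same-numbered values (0.0196 to 0.0328) lay above the different-numbered ones (-0.0295 to 0.0073). All were small, and the replicate numbers in the titles were not used to pair the samples in the main fits. With the replicate block the counts stayed at 5 with the CD146 shRNA, 5 with CD146 overexpression, 14 between the lines and 3 for the difference of responses. Depth limits the undetected members, which had at most 11 counts in a library. Without the filter on low counts, 33 members were tested between the lines and 18 were called.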
